A study of Mus musculus with 6 samples.

Results

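Chemokines are small secreted proteins that direct the movement of blood cells, and most of them act through receptors that couple to Gi proteins. The 30 genes described here are a set of mouse chemokines, chemokine receptors and receptors for the lipid sphingosine 1-phosphate (S1P). They were chosen by name with earlier results of these data known, and looked up by symbol among the 53819 genes of a table of read counts. All 30 had a row. They comprise 13 chemokine receptors, 15 chemokines and 2 S1P receptors, and 21 of them had enough reads to be tested.

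RNA was sequenced from mouse leukaemia cells sorted from the spleen, in 3 libraries labelled SLC6A6 KO and 3 labelled SLC6A6 WT. Mice of both groups had been transplanted with primary leukaemia cells that carried BCR-ABL together with NUP98-HOXA9, used as a model of blast crisis in chronic myeloid leukaemia. The gene Slc6a6 codes for a transporter of taurine, and KO was set against WT to ask what its loss does to expression in leukaemia cells. The labels say KO while the series title says knock-down. They name no allele, strain, age, sex or sorting marker, and leave unstated if each library is from its own mouse. The p-values therefore cover the spread between libraries, and this spread may be technical.

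Library totals were 42829294 to 44902511 counts in KO and 44950191 to 49537098 counts in WT. Values are counts scaled to library size (CPM), with the sizes corrected for library composition by TMM. Slc6a6 itself had 125, 132 and 133 CPM in the KO libraries, numbered KO1 to KO3, against 151, 145 and 145 CPM in WT1, WT2 and WT3, and the difference did not pass the test (log2 fold change -0.18 ± 0.07, SE, adjusted p = 0.196). Counts per gene cannot show an altered transcript, so this level does not check the genotype. The Y-linked genes Kdm5d, Uty, Eif2s3y and Ddx3y summed to 11236, 10825 and 10274 counts in KO and to 0, 0 and 1 counts in WT, so genotype and the sex of the cells cannot be told apart in any comparison made here. Ptprc, the leukocyte antigen CD45, was present in all libraries at 87.2 to 131 CPM in KO and 50.1 to 148 CPM in WT, and Hoxa9, part of which is in the fusion, at 97.3 to 108 CPM in KO and 129 to 140 CPM in WT.

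Among chemokine receptors, CXCR4 answers to CXCL12 made by marrow stroma and holds blood stem cells there, CXCR2 answers to CXCL1 and CXCL2 and moves neutrophils, and CXCR3, CXCR5, CXCR6 and CCR7 place lymphocytes and dendritic cells. CCL3, CCL4, CCL6 and CCL9 are inflammatory CC chemokines of myeloid cells that act on CCR1 and related receptors. S1P is abundant in blood and lymph, and S1PR1 draws lymphocytes and progenitor cells out of tissues toward it.

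In these libraries the receptor genes Cxcr6 and Cxcr3 rose in KO and the ligand genes Ccl9 and Ccl3 fell. These were 2 rises and 2 falls among 21 tested members, or 19.0% called, beside 3.56% called of all 15232 tested genes (1.64% higher and 1.92% lower in KO). The test was edgeR's quasi-likelihood F test with Benjamini-Hochberg adjustment over all tested genes and a threshold of 0.05. The 4 adjusted p-values lay between 0.0265 and 0.0479, and none of the calls held with every library left out in turn, as given below. Cxcr3, Cxcr5, Cxcr6 and Ccl24 passed the filter on low counts through the KO libraries alone, so they could be tested only because they were higher there, and the count of calls is a description. Of the 21 members 10 had a positive and 11 a negative log2 fold change, with a median of -0.0032 beside 0.0093 over all tested genes. The KO and WT values did not overlap in 13 of the 21 members (61.9%), 8 of them higher and 5 lower in KO. Over all tested genes the share was 28.0% (13.6% higher and 14.4% lower). The 8 include Cxcr3, Cxcr5, Cxcr6 and Ccl24, whose groups could not overlap given how they passed the filter. This count too is therefore a description.

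**Figure D1:**
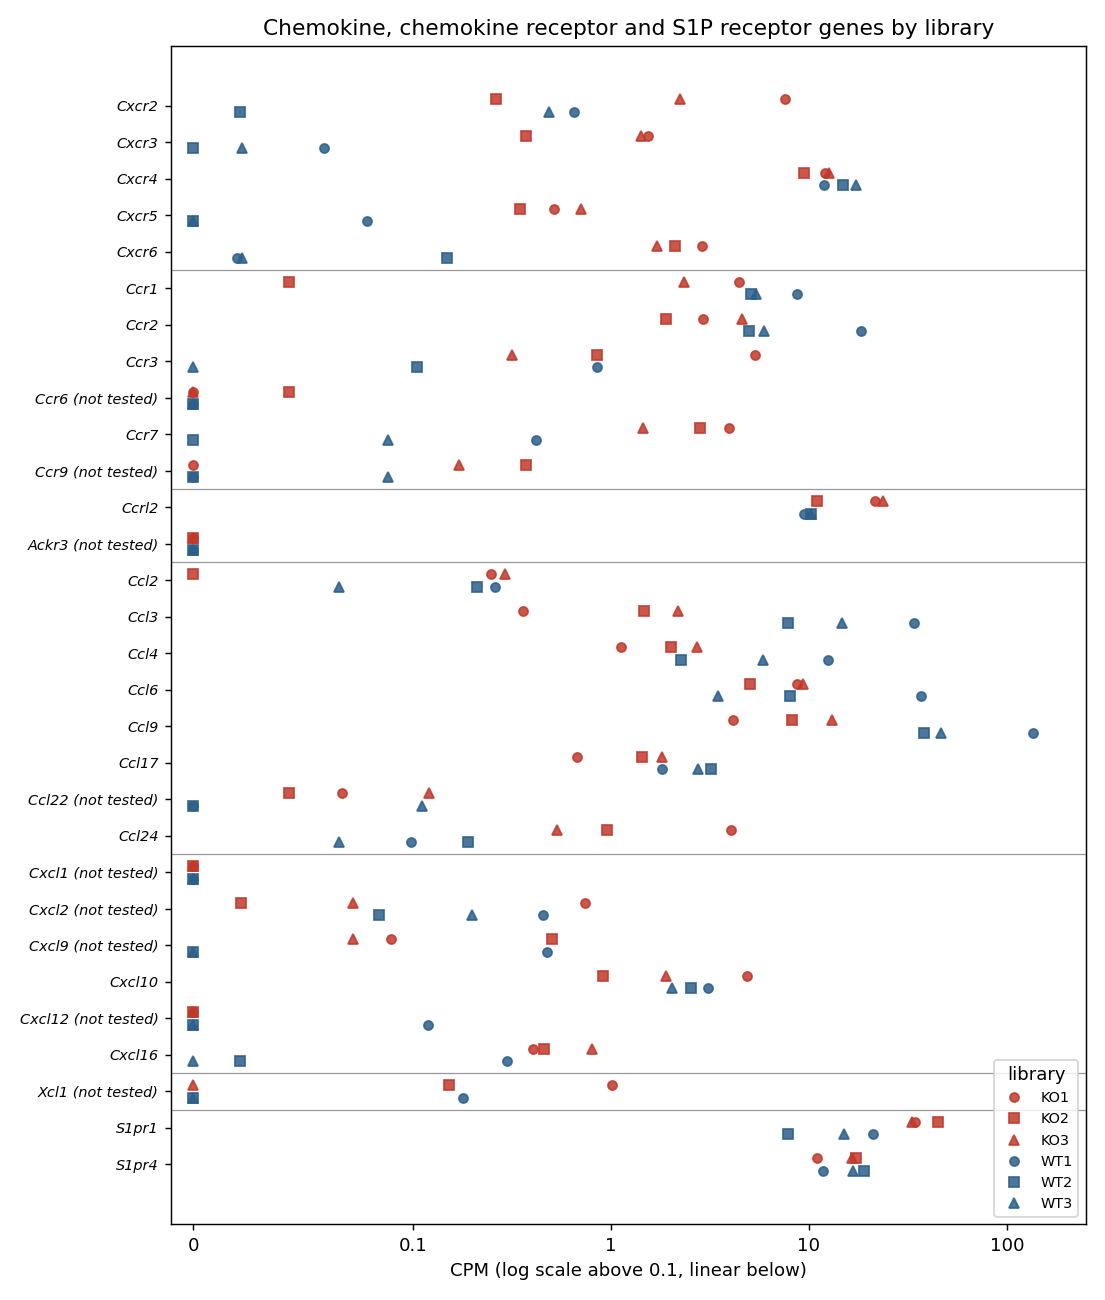
CPM of the 30 genes in each library (axis linear below 0.1 and on a log scale above), with KO libraries in red above WT libraries in blue and horizontal lines between the families. The KO points of Cxcr6, from 1.7 to 2.88 CPM, lie right of the WT points, from 0.0198 to 0.148 CPM, and those of Ccl9, from 4.14 to 13.1 CPM, lie left of the WT points, from 38 to 136 CPM.

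Cxcr6, the receptor for CXCL16 on effector and tissue-resident T cells, was counted 128, 97 and 70 times in KO1, KO2 and KO3, and 1, 7 and 1 times in WT1, WT2 and WT3. In CPM this was 2.88, 2.11 and 1.7 in KO and 0.0198, 0.148 and 0.0221 in WT. Every KO library was above every WT library, and WT values were close to 0. Both followed from Cxcr6 passing the low-count filter through the KO libraries alone. The fitted ratio was 34-fold (log2 fold change 5.09 ± 0.8, SE, n = 3 against 3, adjusted p = 0.0265). It was 94.2-fold without WT2, which held most of the WT counts. Cxcr6 lies within the span of Fyco1 on the other strand, with no shared exon in GENCODE M21. Fyco1 was at 25.5, 13.8 and 14.3 CPM in KO and 15.2, 11.5 and 10.3 CPM in WT and did not pass the test (adjusted p = 0.332).

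Cxcr3, the receptor for CXCL9 and CXCL10 on activated T and NK cells, had 68, 17 and 58 counts in KO and 3, 0 and 1 counts in WT, or 1.53, 0.37 and 1.41 CPM against 0.0594, 0 and 0.0221 CPM. The groups did not overlap, which followed from passing the low-count filter through the KO libraries alone. KO2 was the lowest of the KO libraries. The fitted ratio was 36.4-fold (log2 fold change 5.18 ± 1.04, SE, adjusted p = 0.0463), and 80.1-fold without WT1, which held 3 of the 4 WT counts. Cxcr3 is on the X chromosome.

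Cxcr5 and Ccr7 were higher in every KO library than in every WT library without passing the test. For Cxcr5 this separation followed from passing the low-count filter through the KO libraries alone. Cxcr5, the CXCL13 receptor that leads B cells and follicular helper T cells into follicles, had 23, 16 and 29 counts in KO and 4, 0 and 0 in WT (adjusted p = 0.0965). An exon of Bcl9l on the other strand overlaps it, and the chemistry does not mark strand. Bcl9l was at 5.87, 6.34 and 2.91 CPM in KO and 4.81, 3.33 and 4.95 CPM in WT and did not pass the test (adjusted p = 0.794). Ccr7, which guides T cells and mature dendritic cells to the T zones of lymphoid organs, stood at 3.96, 2.83 and 1.45 CPM in KO and 0.416, 0 and 0.0884 CPM in WT (log2 fold change 3.99 ± 1.11, SE, adjusted p = 0.0978). Without WT1 the log2 fold change of Ccr7 was 5.88. The WT values of both genes rested on WT1, with 4 of 4 counts of Cxcr5 and 21 of 25 counts of Ccr7. Of the 5 CXC receptor genes 2 rose, 0 fell and 3 did not pass, beside 3.56% called of all tested genes. Cxcr3, Cxcr5 and Cxcr6 were tested through the KO libraries alone, so this count is a description.

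Some markers of lymphocytes and antigen-presenting cells also rose in KO, and others did not. Over all tested genes 1.64% were called higher in KO. Of 20 T and NK cell markers 18 were tested and 5 rose, among them Cd3e with 2.14 ± 1 CPM in KO and 0.0264 ± 0.0458 CPM in WT (SD, n = 3 each), and Cd4, with no count in WT. Of these 5 calls 4 were of genes that passed the low-count filter through the KO libraries alone, as were 10 of the 18 tested, so this count too is a description. The summed level of this list was 61.7, 24.2 and 47.4 CPM in KO and 27.8, 17.5 and 24.5 CPM in WT, so KO2, the lowest KO library for Cxcr3 as well, lay below WT1 and WT3. The gene of the list with the most reads, Lck, was at 17.3, 10.7 and 13.8 CPM in KO and 12.3, 13 and 18.4 CPM in WT. The next by reads had negative log2 fold changes that did not pass: Prf1, or perforin, had 2.88, 1.09 and 2.81 CPM in KO and 7.45, 2.63 and 2.28 CPM in WT, and Klrb1c, or NK1.1, had 1.17, 0.849 and 0.557 CPM in KO and 6.06, 0.906 and 2.28 CPM in WT. Lck, Prf1 and Klrb1c were the 3 negative ones among the 18 tested. The other 15 were positive, among them the 10 tested through the KO libraries alone, and the median was 4.1. Without Lck the sum was 44.5, 13.5 and 33.6 CPM in KO and 15.5, 4.57 and 6.12 CPM in WT, so KO2 still lay below WT1. Of 12 B and plasma cell markers 3 of 8 tested rose, 2 of them tested through the KO libraries alone. The sum was 109, 64.5 and 168 CPM in KO and 5.53, 43.6 and 6.19 CPM in WT. Pax5 had 3, 7 and 1 counts in KO and 0 in WT. Ebf1 had 0, 0 and 11 counts in KO and 3, 0 and 0 in WT, and neither gene was tested. Of 14 dendritic cell markers 3 of 9 tested rose, and the sum was 127 to 143 CPM in KO and 52.4 to 62.3 CPM in WT, while Flt3 stood at 0.698, 1.96 and 2.59 CPM in KO and 6.14, 3.73 and 6.41 CPM in WT (adjusted p = 0.126). The part of such cells in the differences of Cxcr6, Cxcr3, Cxcr5 and Ccr7 was not tested, and in bulk RNA fewer cells of a type and less RNA per cell cannot be told apart.

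**Figure D2:**
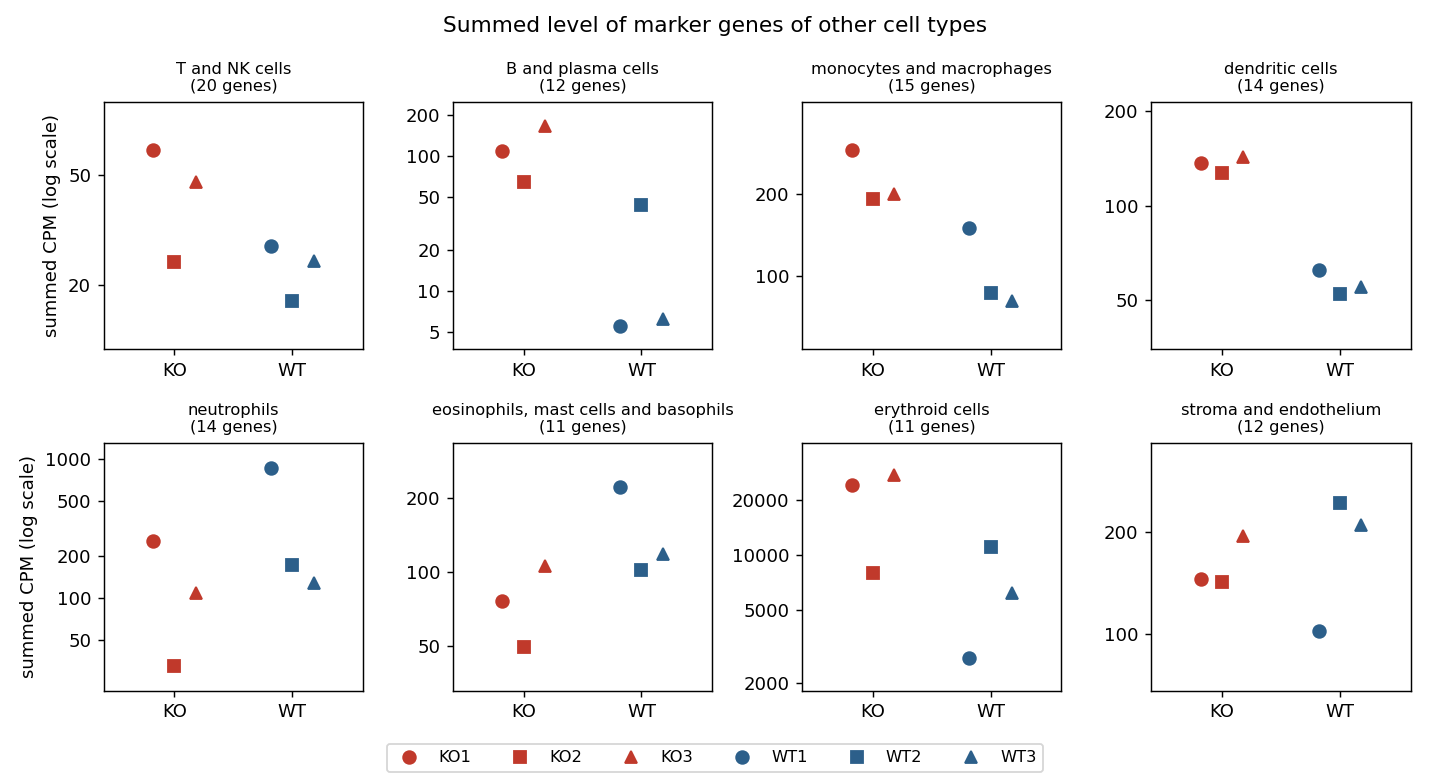
Summed CPM (log scale) of the marker genes of 8 cell types in each library, with KO on the left and WT on the right of each panel. Dendritic cell and macrophage markers are higher in every KO library, T and NK cell markers overlap through KO2 (24.2 CPM), and neutrophil markers are highest in WT1 (861 CPM).

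The myeloid receptors did not move together. Cxcr4 was the receptor gene among the 13 with the highest mean level per kilobase of exon over the 6 libraries, with 12.1, 9.47 and 12.6 CPM in KO and 11.9, 14.8 and 17.4 CPM in WT. The groups overlapped through WT1, and the log2 fold change was -0.37 ± 0.21 (SE, adjusted p = 0.364). Cxcr2 stood at 7.58, 0.261 and 2.23 CPM in KO and 0.654, 0.0211 and 0.486 CPM in WT. Most of its reads were thus in KO1, the 3 KO libraries spanned 12 to 337 counts, and the ratio of 8.61-fold had an adjusted p of 0.23. Without KO1 it was 3.2-fold.

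Ccr2, the CCL2 receptor that releases monocytes from the marrow, was at 2.93, 1.89 and 4.61 CPM in KO and 18.4, 4.99 and 5.9 CPM in WT (log2 fold change -1.64 ± 0.59, SE, adjusted p = 0.166), and without WT1 its log2 fold change was -0.82. Ccr1, a receptor for CCL3, CCL6 and CCL9, was at 4.41, 0.0435 and 2.35 CPM in KO and 8.66, 5.12 and 5.39 CPM in WT (adjusted p = 0.471). Both receptors were lower in every KO library than in every WT library, WT1 was the highest of the 6 for both, and KO2 held only 2 counts of Ccr1. Ccr3, the eotaxin receptor of eosinophils, had 237, 39 and 13 counts in KO and 43, 5 and 0 counts in WT, and KO1 carried most of its reads (adjusted p = 0.347). Of the 6 CC receptor genes 4 were tested and 0 passed edgeR's test. An unadjusted p under 0.05 was found for 2 of them, beside 22.0% of all tested genes. DESeq2 called 2, Ccr7 and Ccr2, and limma-voom 0.

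Ccrl2, which binds the attractant chemerin without signalling and presents it to other cells, was expressed in all libraries, with 21.7, 11 and 23.6 CPM in KO and 9.49, 10.2 and 10.3 CPM in WT. KO2 lay next to the WT libraries and the other KO libraries well above them. The log2 fold change was 0.91 ± 0.29 (SE, adjusted p = 0.133), and without KO2 it was 1.17 with an adjusted p of 0.0301.

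Among the ligands, Ccl9 had the highest mean level of the 30 genes per kilobase of exon over the 6 libraries, at 13.5 CPM per kilobase. It stood at 4.14, 8.21 and 13.1 CPM in KO and 136, 38 and 46.6 CPM in WT, so that no KO library reached a WT library and WT1 was far above WT2 and WT3. Ccl9 was 8.71-fold lower in KO (log2 fold change -3.12 ± 0.62, SE, adjusted p = 0.0459), and 5.08-fold lower without WT1. Ccl3, also known as MIP-1 alpha, was at 0.36, 1.46 and 2.18 CPM in KO and 33.9, 7.86 and 14.7 CPM in WT. It too showed no overlap and a maximum in WT1, and was 14.1-fold lower in KO (log2 fold change -3.82 ± 0.78, SE, adjusted p = 0.0479), and 8.59-fold lower without WT1.

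In the RefSeq annotation of GRCm38.p6 Ccl9, Ccl6, Ccl3 and Ccl4 are consecutive protein-coding genes on chromosome 11. Ccl4, or MIP-1 beta, was at 1.13, 2 and 2.71 CPM in KO and 12.5, 2.25 and 5.88 CPM in WT, with KO3 above WT2 (log2 fold change -1.82 ± 0.64, SE, adjusted p = 0.162), and without WT1 its log2 fold change was -1.08. Ccl6 was at 8.75, 5.05 and 9.38 CPM in KO and 37, 8.07 and 3.49 CPM in WT. Its WT value was high in WT1 alone, WT3 was the lowest of the 6 libraries, and the log2 fold change of -1.07 (adjusted p = 0.489) turned to 0.39 without WT1. All 4 neighbours were highest in WT1. Ccl9 and Ccl3 had the same order of all 6 libraries, Ccl4 had KO3 and WT2 exchanged, and Ccl6 had another order. On chromosome 9, Ccr9, Cxcr6, Ccr1, Ccr3 and Ccr2 lie in this order with at most 1 other protein-coding gene between neighbours, and there Cxcr6 rose while Ccr1 and Ccr2 had negative and Ccr3 a positive log2 fold change.

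WT1 also had the highest sums of neutrophil markers and of eosinophil, mast cell and basophil markers, but not of monocyte and macrophage markers. The 14 neutrophil markers summed to 258, 32.5 and 109 CPM in KO and 861, 172 and 129 CPM in WT. Of the 13 tested, 0 passed edgeR's test, 2 passed in DESeq2 and 0 in limma-voom. An unadjusted p under 0.05 was found for 4 of them, beside 22.0% of all tested genes. Ngp, a granule protein gene and the one with the most reads, was at 5.96, 0.0871 and 0.897 CPM in KO and 290, 55.9 and 41.5 CPM in WT. Without Ngp the sum was 252, 32.4 and 108 CPM in KO and 570, 116 and 87.2 CPM in WT, so WT3 lay below KO3. Of the 13 tested markers 5 had a positive log2 fold change, among them Csf3r, the G-CSF receptor, with 23.1, 1.87 and 7.25 CPM in KO and 1.29, 0.464 and 0 CPM in WT (adjusted p = 0.137). The 11 eosinophil, mast cell and basophil markers summed to 76.4, 49.5 and 106 CPM in KO and 222, 102 and 118 CPM in WT, of which 1 of 9 tested, Hdc, fell, and Il5ra and Tpsb2 had no count in any library. KO1 had the highest neutrophil marker sum of the KO libraries and also the highest Cxcr2. Over all 6 libraries the orders differed: WT1, with the highest sum, had 0.654 CPM of Cxcr2 against 7.58 CPM in KO1. Of the 15 monocyte and macrophage markers 3 rose, 0 fell and 12 did not pass, with 11 positive and 4 negative log2 fold changes and a sum of 191 to 289 CPM in KO and 80.5 to 150 CPM in WT. The median log2 fold change of the 15 was 2.68. The 3 that rose were Cx3cr1, Csf1r and Mrc1. Csf1r was at 26.7, 8.08 and 5.38 CPM in KO and 1.23, 0.948 and 0.84 CPM in WT. Mrc1 was at 2.81, 4.88 and 2.3 CPM in KO and 0.357, 0.337 and 0.376 CPM in WT. Over all tested genes 1.64% were called higher and 1.92% lower in KO. Among the 4 negative ones were Ly6c2, at 3.71, 1.15 and 4.7 CPM in KO and 24.7, 7.04 and 3.03 CPM in WT, and Fcgr1, at 1.04, 0.588 and 0.582 CPM in KO and 2.46, 2.49 and 1.66 CPM in WT (adjusted p = 0.247 and 0.088). The part of these cells in the differences of Ccl9, Ccl3, Ccr1, Ccr2 and Cxcr2 was not tested.

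The remaining CC ligands were low. Ccl24, or eotaxin-2, had 180, 44 and 22 counts in KO and 5, 9 and 3 in WT, or 4.05, 0.958 and 0.533 CPM against 0.0991, 0.19 and 0.0663 CPM. All KO libraries were above all WT libraries, which followed from passing the low-count filter through the KO libraries alone. KO1 was by far the highest, and the ratio of 15.3-fold missed the threshold (adjusted p = 0.0689). Without KO1 it was 6.18-fold. Ccl17, a CCR4 ligand made by dendritic cells, was at 0.675, 1.44 and 1.82 CPM in KO and 1.82, 3.2 and 2.74 CPM in WT. KO3 with 75 and WT1 with 92 counts nearly touched, and the adjusted p was 0.269. Ccl2, the monocyte attractant, had 11, 0 and 12 counts in KO and 13, 10 and 3 in WT, and Ccl22, another CCR4 ligand, at most 5 counts in any library. Of 8 CC ligand genes 7 were tested, 2 fell, 0 rose and 5 did not pass, beside 1.92% of all tested genes called lower.

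Of the 6 CXC ligand genes of the set, 4 had too few reads to be tested. Cxcl10, an interferon-induced ligand of CXCR3, had the highest mean level of the 6 per kilobase, 1.13 CPM, and stood at 4.84, 0.915 and 1.89 CPM in KO and 3.09, 2.55 and 2.03 CPM in WT, with overlapping groups (log2 fold change -0.01 ± 0.59, SE, adjusted p = 0.996). An exon of Art3 on the other strand overlaps it, with at most 0.729 CPM in any library. Cxcl16, the membrane-bound ligand of CXCR6, had 18, 21 and 33 counts in KO and 15, 1 and 0 in WT, and WT1 came close to the KO libraries (adjusted p = 0.31). An exon of Zmynd15 on the other strand overlaps Cxcl16, with at most 0.221 CPM in any library. Cxcl9 had 4, 23 and 3 counts in KO and 24, 0 and 0 in WT. Cxcl2 ranged from 1 to 33 counts in KO and from 4 to 23 in WT. Of the 2 tested genes 0 passed edgeR's test, and 0 had an unadjusted p under 0.05 or a call in DESeq2 or limma-voom.

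Cxcl12, the CXCR4 ligand of marrow stroma, had 0 counts in KO and 6, 0 and 0 counts in WT, all in WT1. Of the 12 stromal and endothelial markers, Cdh5, Col3a1, Pdgfra and Dcn had no count in any library, while Col1a2 made up most of the list's sum of 142 to 195 CPM in KO and 102 to 244 CPM in WT. Tek, the next by reads, was at 18.7, 15.3 and 6.37 CPM in KO and 3.67, 0.927 and 2.37 CPM in WT (log2 fold change 2.53, adjusted p = 0.0654). Of the 3 tested markers of this list 0 passed edgeR's test, and DESeq2 called 2 and limma-voom 0. Cxcl1, a neutrophil attractant, and Ackr3, the scavenging receptor for CXCL12, had 0 counts in all 6 libraries. A count of 0 over a group allows up to 3 counts, or 0.0228 CPM in KO and 0.021 CPM in WT, for counting error only. Near 0 were also Ccr6, the CCL20 receptor, with 2 counts, both in KO2, and Ccr9, the CCL25 receptor of thymocytes and gut T cells, with 0, 17 and 7 counts in KO and 0, 0 and 4 in WT. Exons of Slc6a20a on the other strand overlap Ccr9. Xcl1, a lymphotactin of NK and CD8 T cells, had 45, 7 and 0 counts in KO and 9, 0 and 0 in WT. Cxcl12, Cxcl1, Ackr3, Ccr6, Ccr9 and Xcl1 were not tested.

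S1pr1 and S1pr4, both receptors of blood cells, were well covered. S1pr1 stood at 34.3, 44.8 and 33.3 CPM in KO and 21, 7.8 and 15.1 CPM in WT, from 1375 to 2059 counts in KO and 370 to 1061 in WT. Every KO library was above every WT library. The ratio was 2.56-fold (log2 fold change 1.35 ± 0.34, SE, n = 3 against 3) and missed the threshold in edgeR (adjusted p = 0.0799), while DESeq2 gave an adjusted p of 0.000782. S1pr4, which is found mainly on lymphoid and myeloid cells, was at 11, 17.4 and 16.5 CPM in KO and 11.8, 19.1 and 16.7 CPM in WT. Its groups overlapped throughout (log2 fold change -0.08 ± 0.25, SE, adjusted p = 0.893). Of the 2 S1P receptors 0 passed edgeR's test, and 1 had an unadjusted p under 0.05, beside 22.0% of all tested genes. DESeq2 called 1 and limma-voom 0.

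**Figure D3:**
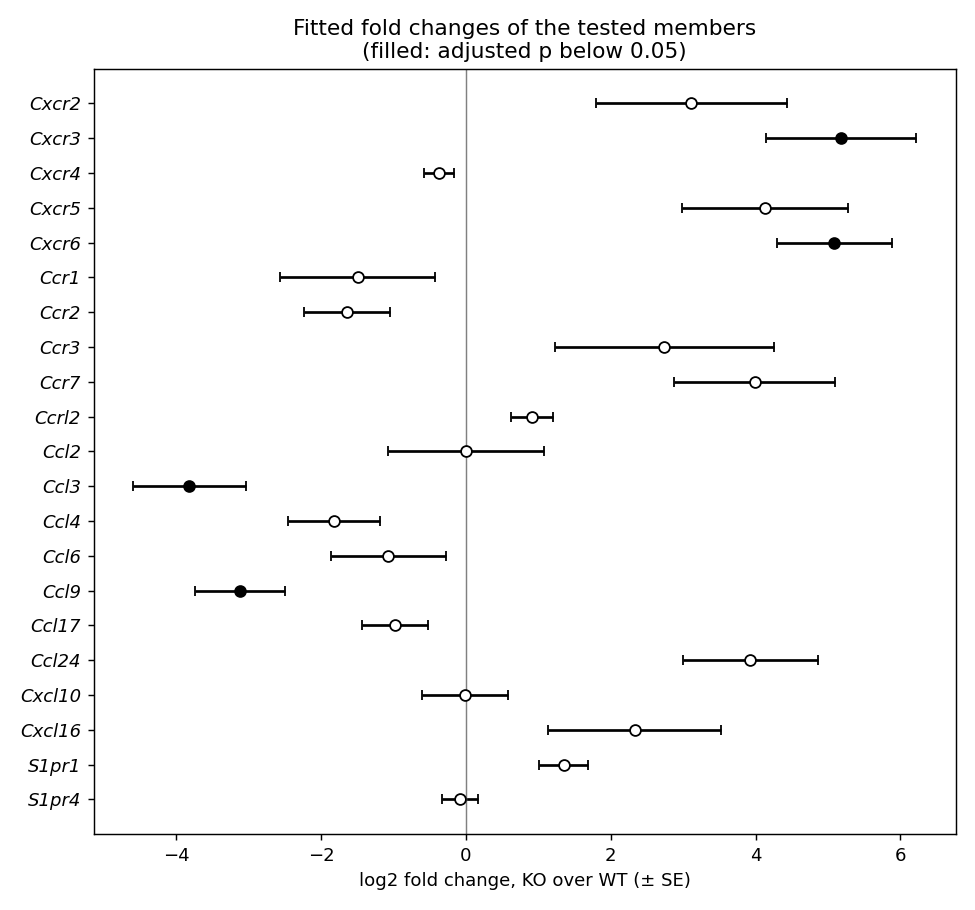
Fitted log2 fold change, KO over WT, of the 21 tested genes with its standard error, filled where the adjusted p is below 0.05. Filled points are Cxcr3 (5.18) and Cxcr6 (5.09) on the right and Ccl3 (-3.82) and Ccl9 (-3.12) on the left, while S1pr4 (-0.08) and Cxcl10 (-0.01) lie at 0.

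Levels of different genes were compared per kilobase of exon in GENCODE M21. In KO the order of mean levels began with S1pr1 at 12.3 CPM per kilobase, Ccrl2 at 7.22, Cxcr4 at 6.29 and S1pr4 at 6.28. In WT it began with the ligands Ccl3 at 24.6 and Ccl9 at 24.2 CPM per kilobase, then Ccl4 at 10.4, Ccl6 at 9.01 and Cxcr4 at 8.11. Without WT1 the WT levels of Ccl3 and Ccl9 were still the first, at 14.7 and 13.9 CPM per kilobase, but Ccl4 (6.16) and Ccl6 (3.22) lay below Cxcr4 (8.88) and S1pr4 (7.5). The called receptors Cxcr6 and Cxcr3 were at 1.15 and 0.637 CPM per kilobase in KO, and at 0.0327 and 0.0157 in WT.

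None of the 4 calls held in every fit that left out 1 library. The adjusted p of Cxcr6 was below 0.05 without KO2 (0.0436) and without WT2 (0.021), and reached 0.115 without WT3. That of Cxcr3 was below 0.05 without KO2 alone (0.0416) and reached 0.172 without WT3. Ccl9 and Ccl3 passed in 0 of 6 such fits, with adjusted p-values from 0.064 to 0.13 and from 0.064 to 0.133. The direction of all 4 was the same in each of these 6 fits. With all libraries but no filter on low counts, the adjusted p was 0.071 for Ccl3 and 0.132 for Ccl9. In limma-voom it was 0.0264 for Cxcr6, 0.0744 for Cxcr3, 0.0861 for Ccl3 and 0.0823 for Ccl9, while DESeq2 called all 4.

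**Figure D4:**
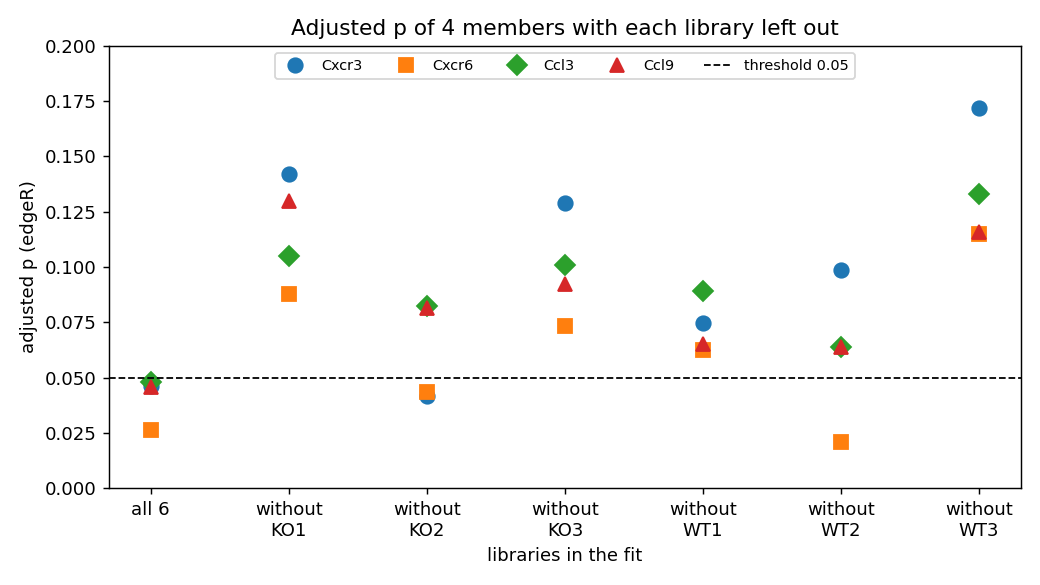
Adjusted p of Cxcr3, Cxcr6, Ccl3 and Ccl9 in edgeR with all 6 libraries and with each library left out, with the threshold of 0.05 as a dashed line. With all libraries the 4 points lie between 0.0265 and 0.0479, and only Cxcr6 (without KO2 and WT2) and Cxcr3 (without KO2) stay under the line.

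The sequences before the start sites of the 4 called genes are shown because these genes carry the differences above. They are the 250 bases before the RefSeq start in GRCm38.p6, 5′ to 3′ on the gene's strand, from a table that held promoters for 23 of the 30 genes. Capitals mark matches, on either strand, to 5 short motifs, namely AP-1 (TGANTCA), STAT (TTCNNNGAA), C/EBP (TTNNGNAA), RUNX (TGTGGT) and a 10-base NF-kB motif.
Cxcr6, chr9:123806227-123806476, plus strand: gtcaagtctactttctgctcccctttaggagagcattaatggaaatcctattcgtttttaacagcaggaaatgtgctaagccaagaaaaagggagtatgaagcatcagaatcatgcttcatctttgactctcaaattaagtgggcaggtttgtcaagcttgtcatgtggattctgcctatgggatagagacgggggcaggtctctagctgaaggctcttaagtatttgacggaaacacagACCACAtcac
Cxcr3, chrX:101734148-101734397, minus strand: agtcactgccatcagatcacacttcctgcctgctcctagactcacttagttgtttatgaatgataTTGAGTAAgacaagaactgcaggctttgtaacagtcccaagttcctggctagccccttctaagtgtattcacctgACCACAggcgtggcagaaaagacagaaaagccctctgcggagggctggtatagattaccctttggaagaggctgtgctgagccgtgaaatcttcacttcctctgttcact
Ccl9, chr11:83578637-83578886, minus strand: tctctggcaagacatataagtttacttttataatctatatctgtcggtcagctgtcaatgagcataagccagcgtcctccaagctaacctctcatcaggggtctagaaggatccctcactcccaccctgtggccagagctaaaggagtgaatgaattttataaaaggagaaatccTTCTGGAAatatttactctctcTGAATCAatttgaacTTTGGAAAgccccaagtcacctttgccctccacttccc
Ccl3, chr11:83649379-83649628, minus strand: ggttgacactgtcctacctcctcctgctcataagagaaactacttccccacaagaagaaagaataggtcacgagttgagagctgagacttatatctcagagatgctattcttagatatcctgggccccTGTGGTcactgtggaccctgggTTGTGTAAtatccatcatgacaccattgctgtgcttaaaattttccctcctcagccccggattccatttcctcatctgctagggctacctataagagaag

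Cxcr6, Cxcr3 and Ccl3 each held 1 RUNX match, which 14.0% of 32536 mouse promoters of this length hold. Cxcr3 and Ccl3 held 1 and Ccl9 held 2 C/EBP matches, a motif found in 36.8% of these promoters. Ccl9 also held 1 AP-1 match (6.73% of promoters). None of the matches in these 4 sequences overlap each other, and the letters of the STAT (7.04%) and NF-kB (1.21%) motifs are not in these windows. A match is a description of the letters and shows no binding, and no match was read in relation to the direction of change.

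Other genes of the pathway were read from 5 lists with 104 genes, of which 76 were tested, 5 rose, 1 fell and 70 did not pass (7.89% called, beside 3.56% of all genes). The lists were chosen with earlier results of these data known, so this share is a description. The 22 other chemokines included Pf4, or CXCL4, the main chemokine of platelets and megakaryocytes, with 131, 155 and 276 CPM in KO and 730, 503 and 530 CPM in WT. Pf4 fell by 68.1% (adjusted p = 0.0361) and the other 5 tested chemokines of this list did not pass. Of 15 other receptors 9 were tested and 2 rose. Cx3cr1, the fractalkine receptor of monocytes, was at 46.7, 66.7 and 66.8 CPM in KO and 22.6, 24.4 and 18.7 CPM in WT, a rise of 2.74-fold (adjusted p = 0.0165). Cmklr1, a chemerin receptor, had 23, 17 and 12 counts in KO and 0 in WT, at least 18.9-fold higher against 3 counts over the WT group (adjusted p = 0.0406). Cmklr1 passed the low-count filter through the KO libraries alone, so it could be called only as higher. Both are receptors with no KO library below a WT library, which for Cmklr1 followed from passing the filter in this way.

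Of 39 genes of signalling downstream of the receptors 36 were tested and, beside 1.64% of all tested genes called higher, 2 rose. These were Jak2, a cytokine receptor kinase, with 118, 105 and 120 CPM in KO and 83.9, 81.4 and 72.7 CPM in WT (1.44-fold, adjusted p = 0.0364), and Rasgrp2, an activator of the integrin regulator Rap1, with 59.7, 68.1 and 55.3 CPM in KO and 44.2, 37.5 and 40.7 CPM in WT (1.49-fold, adjusted p = 0.0484). Of 14 regulators of receptor level and chemokine-cutting proteases 13 were tested and Cd74 rose. Cd74, the MHC class II invariant chain and a receptor for the cytokine MIF, was at 44.7, 37.6 and 50.9 CPM in KO and 6.95, 4.38 and 5.04 CPM in WT (8.13-fold, adjusted p = 0.00231). It also belongs to the dendritic cell list, as Cx3cr1 does to the macrophage list. Cd74 was past the threshold in all 6 fits without 1 library, while Pf4 was past it only without KO3, Jak2 only without KO2, Cx3cr1 in all but those without KO3 (adjusted p = 0.0557) and WT3 (0.0755), and Rasgrp2 and Cmklr1 in none. With libraries scaled by their totals alone Rasgrp2 did not pass (adjusted p = 0.0697). Of the 14 genes of S1P synthesis, export and breakdown 12 were tested, with 6 positive and 6 negative log2 fold changes and a median of 0.08. Among the positive ones Sgpp1 (1.64-fold, adjusted p = 0.0715) and Plpp3 (2.1-fold, 0.102), which remove the phosphate of S1P, and Sgpl1, the S1P lyase (2.21-fold, 0.163), were higher in every KO library than in every WT library. No other tested gene of the list was without overlap, while 28.0% of all tested genes were. Plpp1 (2.32-fold) overlapped between the groups, and Plpp2 had a log2 fold change of -0.27. In that list 0 passed edgeR's test, and 3 of the 12 tested had an unadjusted p under 0.05, beside 22.0% of all tested genes. DESeq2 called 3 and limma-voom 0.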

How the data were processed

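RNA from 3 KO and 3 WT libraries was amplified with SMARTer chemistry and made into libraries with Nextera XT, per the labels' protocols. These kits mark neither strand nor molecules, so intervals and limits cover counting error only. The authors deposited whole-number counts of reads per gene. Tools named per the submitters' processing notes are STAR 2.7.9a, featureCounts, Subread 2.0.1 and fastp 0.23.1. The build, annotation and settings were not found in those notes. Overlap with other genes and exon lengths came from GENCODE M21, which holds 92.8% of the table's symbols.

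Genes were filtered with filterByExpr by group (minimum count 10, total 15), leaving 15232 of 53819. edgeR 4.0.16 (R 4.3.3) with TMM, robust quasi-likelihood and no covariate compared KO with WT, with Benjamini-Hochberg adjustment over all tested genes. The standard error is the log2 fold change divided by the root of F. The code was tested on simulated data. Alternatives used other scalings, filters, DESeq2 1.42.0, limma-voom (limma 3.58.1), a replicate block, and each library left out in turn. No 2 libraries of a group agreed within sampling noise (chi-square per degree of freedom 36.7 to 131).

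The members and lists were chosen with earlier results of these data known. Members past the threshold, or with no overlap and at least 1 CPM in a group, or at least 10 CPM, are given for every library. Of the pathway lists genes past the threshold are named, and of marker lists up to 3 abundant genes. Other named genes were chosen after their values were seen. Among them are Cd3e, Cd4, Pax5, Ebf1, Flt3, Csf3r, Csf1r, Mrc1, Ly6c2, Fcgr1, Sgpp1, Sgpl1, Plpp1, Plpp2, Plpp3, Ptprc and Hoxa9. A withheld gene is not reported here.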

Additional observations from a re-analysis of the deposited data

How the results depend on the processing

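All genes called higher and lower in KO numbered 250 and 293, against 1158 and 932 in DESeq2, and 13 to 371 and 29 to 247 with 1 library left out (lowest without WT3; every library but KO2 moved both counts by over 1.5 times). Of the 30 genes 2 were called higher and 2 lower. With no low-count filter 0 were lower, with at least 1 CPM in 3 libraries 1 was higher and 1 lower, limma-voom called 1 higher and 0 lower, and DESeq2 8 and 4 (adding Ccl24, Ccr7, Ccrl2, Cxcr2, Cxcr5 and S1pr1 as higher, Ccl4 and Ccr2 as lower). With 1 library left out 0 to 3 were higher and 0 lower. Among pathway genes, 5 higher and 1 lower became 13 and 5 in DESeq2, 0 lower with no low-count filter, and 1 to 4 higher and 0 to 1 lower with 1 library left out. The labels do not pair libraries by number. Deviations of same-numbered libraries from their group means correlated at 0.063, -0.143 and -0.066, and not every library correlated best with its own number. With the replicate number as a block, 8 genes were higher and 20 lower, 0 and 0 of the 30, and 1 and 0 of the pathway genes, Cd74 being the call. The scalings by RLE size factors and by library totals kept the 4 calls. Only members near 0 changed sign outside fits without 1 library: Ccl2 at 0.00 with RLE size factors and 0.01 in DESeq2, and Cxcl10 at 0.00 in DESeq2. Without 1 library the log2 fold change ranged from -0.53 to 0.58 for Ccl2, -1.55 to 0.39 for Ccl6, -0.87 to 0.39 for Cxcl10 and -0.28 to 0.1 for S1pr4. The cause was not tested. Depth limits the members near 0 counts.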

Other observations

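Ackr1, the Duffy chemokine-binding receptor of erythroid and endothelial cells, was chosen after its values were seen. It had 22.3, 7.21 and 32.7 CPM in KO1, KO2 and KO3, against 0.139, 3.94 and 2.41 CPM in WT1, WT2 and WT3. All KO libraries were above all WT libraries, but the spread within KO was wide and the adjusted p in edgeR was 0.126. The 11 erythroid markers measured, led by the globin genes Hbb-bs, Hbb-bt and Hba-a1, summed to 24188, 8024 and 27382 CPM in KO and 2718, 11044 and 6207 CPM in WT. KO1 and KO3 were highest and WT1 lowest for both, while KO2 lay below WT2 in the erythroid sum and above it in Ackr1. Of the 11 markers 0 passed edgeR's test, and 7 had an unadjusted p under 0.05, beside 22.0% of all tested genes. DESeq2 called 1 and limma-voom 0.

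Ppbp, another platelet chemokine, also chosen after its values were seen, was at 10.5, 15.9 and 27.6 CPM in KO and 92.4, 31.9 and 41 CPM in WT. As for Pf4, KO1 was the lowest and WT1 the highest library, and the adjusted p was 0.12.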
